A study of Mus musculus with 2 samples.

Results

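The cytosolic ribosomal proteins are the proteins of the ribosome that translates nuclear mRNA, named Rpl for the large (60S) subunit, Rps for the small (40S) subunit and Rplp for the P-stalk of the large subunit. They were taken from the counted genes by name, as Rpl or Rps, an optional p, a number and an optional final a, l or x. This gave 80 of the 23284 genes in the count files, made up of 43 genes of the 60S body, 30 of the 40S subunit, 3 of the P-stalk and 4 paralogues whose names end in l. The rule itself uses names and no measured value. Of the 80 genes, 75 had a mean of at least 1 CPM (counts per 1000000 library counts, scaled as described below) over both libraries and are called measured below.

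RNA came from primary hepatocytes, liver cells isolated and kept in culture, of C57BL/6 mice. Each of the 2 groups was 1 library from cells pooled from 5 mice. The control cells received a control lentivirus and the knockdown cells a lentivirus that expresses an shRNA against JMJD3, the histone H3 lysine 27 demethylase encoded by Kdm6b, for 48 h beginning 24 h after plating. All cells, controls included, were then given 5 mM glucose and 10 µM Fsk, the usual short name of forskolin, for 6 h to imitate fasting, so no library here shows either virus without it. The promoter and sequence of the shRNA are not among the labels.

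Each ribosome holds 1 copy of most of these proteins, and their genes are therefore usually transcribed at similar, high rates in all growing cells. Their mRNAs begin with a terminal oligopyrimidine (TOP) tract, a run of C and U at the very 5′ end through which the mTORC1 kinase and the protein LARP1 control their translation and stability. The genome also carries many processed pseudogenes of them, intronless copies made from mRNA, which makes short reads of these genes hard to place. In liver, ribosome production follows feeding and growth.

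The control library held 11099562 counts and the knockdown library 18334366, a 1.65-fold difference in depth. Kdm6b was at 90.7 CPM in control and 33.0 CPM in the knockdown library, a log2 ratio of -1.46 (-1.60 to -1.31). Hepatocyte markers were present in both libraries, 8 of 8 measured, with a summed level of 11693 CPM in control and 8499 CPM in knockdown. The summed level of 5 cholangiocyte markers was 7974 and 8282 CPM, nearly all of it Spp1. Of the hepatocyte markers 4 passed the rule of size given below as lower and 1, Apob, as higher, and Fgb alone went from 3987 to 846 CPM. Of the cholangiocyte markers Krt7, Krt19 and Sox9 passed as higher, at log2 ratios of 1.65, 0.60 and 0.59. Summed levels of the macrophage, endothelial and stellate cell lists ran from 24.6 to 192 CPM, with 4 of 6, 5 of 5 and 6 of 7 markers measured. None of the 4 blood cell markers was measured, and Clec4f of Kupffer cells was at 0 in both libraries. The part of the hepatocyte and cholangiocyte markers in the results below was not tested. In bulk RNA, fewer cells of a type and less RNA per cell cannot be told apart.

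With 1 library a group, no difference below has a replicate check, and no p-value is given other than the authors' own. In place of a test, the rule of size called a gene higher or lower if its scaled ratio was at least 1.5-fold from 1 and the exact binomial 95% interval of its counts excluded 1. These intervals cover counting error only, and they treat each count as independent. Sequencing was paired-end and no option for read pairs is recorded, so both reads of a pair may have been counted. In that case the intervals are too narrow even for counting error.

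Transcripts of the cytosolic ribosome had slightly lower scaled levels in the knockdown library. The 80 genes took 278004 counts in control, 2.505% of the library (exact binomial interval 2.495 to 2.514%), and 350544 in knockdown, 1.91% (1.91 to 1.92%). After scaling by trimmed mean of M values (TMM), their summed level in the knockdown library was 0.783 of that in control (0.779 to 0.787). Of 75 measured members 74 had a ratio below 1, beside 50.3% of the 12607 measured genes. The interval lay wholly below 1 in 73 of them and wholly above 1 in 0, beside 32.4% and 33.6% of all measured genes. An interval excludes 1 more readily where counts are high, and most members lie far above most measured genes in level, as given below. These shares are therefore not compared at like levels. Only 4 members passed the rule of size as lower and 0 as higher, beside 12.8% and 15.3% of all measured genes. The median log2 ratio of the members was -0.35, a level 0.785 of that in control, beside -0.00 over all measured genes. With the trend on exon length described below removed, it was -0.0076. The members lay close to each other. Their standard deviation was 0.14 on the log2 scale, beside 0.84 over all measured genes, and 52 of 75 were between -0.25 and -0.50. The 0.84 includes genes with few counts, whose ratios spread more by counting error alone.

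**Figure D1:**
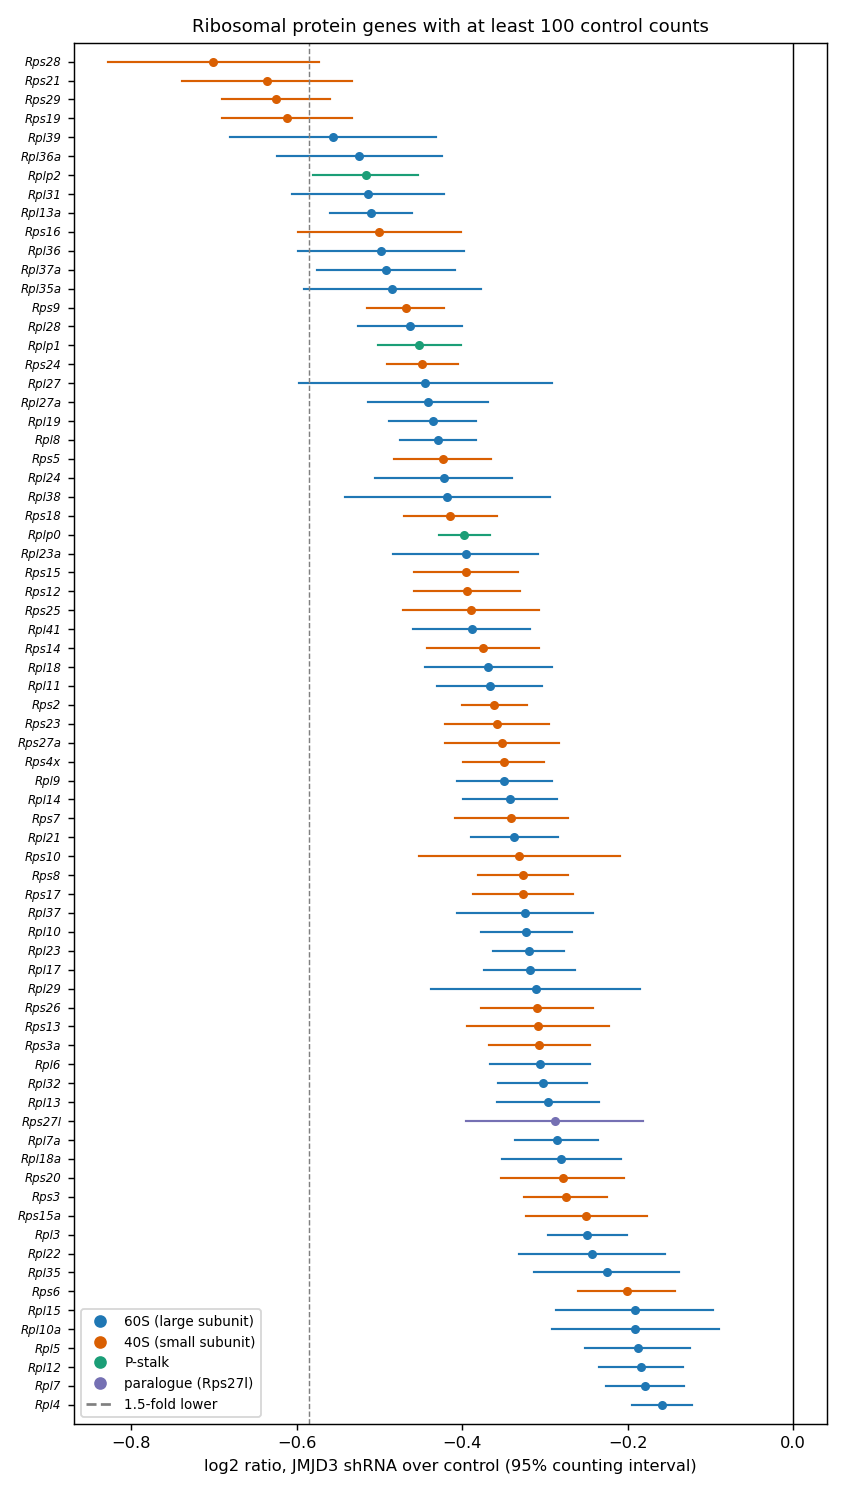
Log2 ratio of the knockdown over the control library for 72 ribosomal protein genes with at least 100 counts in control, ordered by ratio and coloured by part of the ribosome. Points are ratios and bars their exact binomial 95% counting intervals; all points lie below 0, from -0.70 for Rps28 to -0.16 for Rpl4, and 4 lie beyond the dashed line at 1.5-fold lower.

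Most members were lower by less than 1.5-fold. The shares given beside the members are over genes of all lengths, with a median exon length of 2871 bp beside 703 bp for members. With the limit set at a ratio of 0.8, 47 of 75 members passed as lower, 23 of the 60S body, 21 of the 40S subunit and 3 of the P-stalk, beside 23.0% of all measured genes. At 2-fold none of the members passed, beside 6.19% lower and 7.35% higher among all measured genes.

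The P-stalk, the flexible arm of acidic proteins through which the ribosome recruits its GTPase factors, held the 2 most abundant members per length. Its base Rplp0 (mm9 chr5:116009476-116013738, plus strand, 7 exons) had 15214 and 18607 counts in control and knockdown. This was 1354 and 1028 CPM, the most counts of any member in both libraries, and a log2 ratio of -0.40 (-0.43 to -0.37). Rplp1, which pairs with Rplp2 on the stalk, was the member highest per kilobase of exon, at 1145 RPKM (CPM per kilobase of exon) in control and 837 in knockdown, with a log2 ratio of -0.45 (-0.50 to -0.40). Rplp2 was at 761 RPKM in control and 532 in knockdown, with a log2 ratio of -0.52 (-0.58 to -0.45). All 3 were lower in the knockdown library by their counting intervals and none by the rule of size.

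In the 60S body, which carries the peptidyl transferase centre and the exit tunnel, 41 of 43 genes were measured. Of these, 0 passed as lower or higher, beside 12.8% and 15.3% of all measured genes. Their median log2 ratio was -0.34. The most abundant per length were Rpl32 at 867 RPKM in control and 703 in knockdown, Rpl12, which helps to hold the stalk base, at 740 and 652, and Rpl8 at 715 and 531. Rpl4, whose long loop lines the exit tunnel, followed at 655 and 587 RPKM. It was closest to an equal level, from 10467 and 15107 counts, at a log2 ratio of -0.16 (-0.20 to -0.12). Rpl7 was next at -0.18 (-0.23 to -0.13), then Rpl12 at -0.18 (-0.24 to -0.13). Rpl5, which carries 5S rRNA into the subunit with Rpl11, was at -0.19 (-0.25 to -0.12), while Rpl11 itself was at -0.37 (-0.43 to -0.30). At the other end stood Rpl39 at -0.56 (-0.68 to -0.43), from 1008 and 1104 counts, which passed as lower only with library totals (-0.59) or upper-quartile factors (-0.61). Rpl36a was at -0.52 (-0.62 to -0.42), Rpl31 at -0.51 (-0.61 to -0.42) and Rpl13a, known also for a part in interferon-gamma translational silencing, at -0.51 (-0.56 to -0.46). The intervals of Rpl4 and Rpl39 did not overlap, but these genes were picked for their place at the ends of the order. Their exon models are 1422 and 394 bp long. With the trend on exon length described below removed, they were at 0.016 and -0.031. Exons of Rpl31, Rpl5 and Rpl32 are in part covered by another gene on the opposite strand, and their counts, made without strand, are uncertain.

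In the 40S subunit, which decodes the mRNA, all 30 genes were measured and 4 passed as lower (13.3%, beside 12.8% of all measured genes), with a median log2 ratio of -0.36. Rps28 (mm9 chr17:33959982-33961443, minus strand, 4 exons), a small protein near the mRNA exit, was the lowest of all measured members. It had 1018 counts in control and 1009 in the deeper knockdown library, or 90.6 and 55.7 CPM, a log2 ratio of -0.70 (-0.83 to -0.57). Rps21 was at 135 and 86.6 CPM, a log2 ratio of -0.64 (-0.74 to -0.53). Rps29, a zinc-binding protein of the 40S head, was at 328 and 212 CPM, a log2 ratio of -0.63 (-0.69 to -0.56). Rps19, the gene most often mutated in Diamond-Blackfan anaemia, was at 228 and 149 CPM, a log2 ratio of -0.61 (-0.69 to -0.53). These 4 genes have exon models of 327, 391, 390 and 629 bp. The intervals of all 4 overlapped one another, so their order within the group is not resolved. With the length trend removed none of the 4 passed, at -0.16, -0.11, -0.10 and -0.20.

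The most abundant 40S members per length were Rps2 at 843 RPKM in control and 656 in knockdown, Rps9 at 869 and 628, Rps24 at 833 and 610 and Rps18 at 798 and 599. Their log2 ratios ran from -0.47 for Rps9 to -0.36 for Rps2. Rps6, the substrate of the S6 kinases below mTORC1, was closest to an equal level at -0.20 (-0.26 to -0.14). Rps15a and Rps27 also stood at that end, at -0.25 and -0.20. For Rps27 the interval of -1.23 to 0.86 covers both directions. Rps27a, made as a fusion with ubiquitin, was at -0.35 (-0.42 to -0.28).

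The order of levels was nearly the same in both libraries. Across the 75 measured members Pearson's r between log2 RPKM in control and in knockdown was 0.996 and Spearman's rho 0.991, a description across genes that share the libraries and gene models. Among the 72 core genes with at least 100 counts in each library, the mean level ran from 41.8 RPKM for Rps15a to 991 RPKM for Rplp1, a 23.7-fold span, with quartiles at 235 and 545 RPKM. Their median of 376 RPKM lay above 99.1% of measured genes, whose median was 11.9 RPKM, and Rplp1 ranked 25 among them. The low end depends on the gene models. The exon model of Rps15a in the files is 5134 bp long, while its principal transcript in GENCODE M21 has 640 bases. Per kilobase of that transcript the mean level was 335 rather than 41.8.

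**Figure D2:**
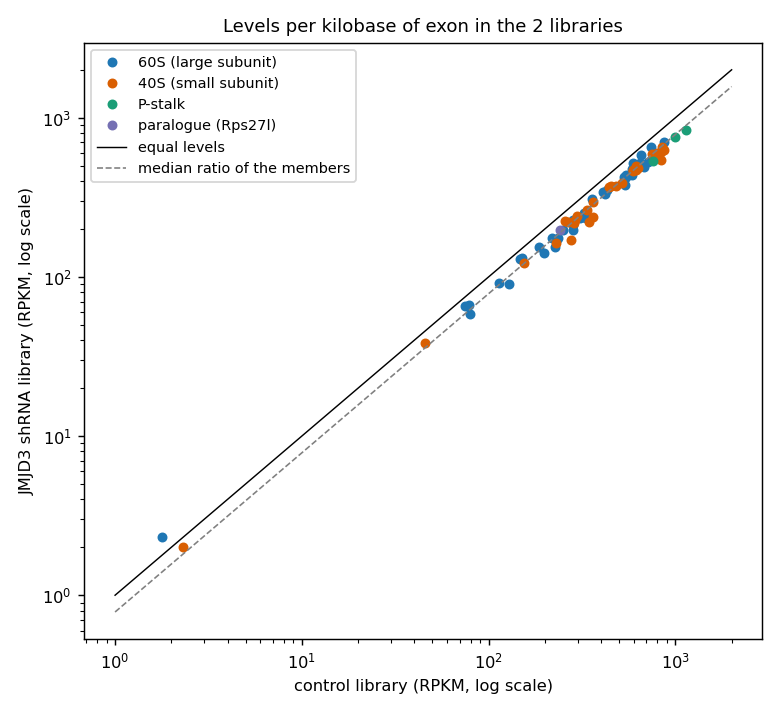
Level of each measured ribosomal protein gene in the control library (x axis) and the knockdown library (y axis), in RPKM on log scales. The dashed line marks the median ratio of 0.785, which most points follow across the span of levels; the pair at the lower left, Rps27 and Rpl34, rests on fewer than 30 counts in each library.

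Of the core genes, 4 were at or near 0 in both libraries, far below the rest. Rpl26 (mm9 chr11:68715068-68718036, plus strand) had 0 counts in each. At 3 counts as the limit that a count of 0 allows, its level was under 0.267 CPM in control and under 0.166 CPM in knockdown. Rpl30 (chr15:34370263-34373031, minus strand) had 1 count in each. Rpl34 (chr3:130429749-130433226, minus strand) had 12 in control and 25 in knockdown, and Rps27 (chr3:90016589-90017570, minus strand) 15 and 21. Every other core gene had at least 653 counts in control. Rpl34 was the member with a ratio above 1, and its interval of -0.68 to 1.498 covers both directions.

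The gene models in the files set these 4 apart. In each, over 50% of the exon bases lie inside exons of a second gene on the same strand: 95.8% of Rpl26 inside Gm15772, 76.0% of Rpl30 inside Gm12191, 67.2% of Rpl34 inside Rpl34-ps1 and 60% of Rps27 inside Gm9846. All 4 of these second genes had 0 counts in both libraries too. The counting program leaves out a read that overlaps exons of several genes unless told otherwise, and the recorded command holds no such option. The part of the overlap in the counts was not tested. Among the other 76 genes 7 had any overlap, 6 of them on the opposite strand, at most 47.7% of the exon bases for Rpl5, and those had between 1814 and 6196 counts in control. The counts of Rpl26, Rpl30, Rpl34 and Rps27 are not read here as levels of expression, although Rpl34 and Rps27 are kept in all summaries of the measured members.

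Sequence shared with other genes did not follow the counts in the same way. In the GENCODE M21 transcripts, 71 of 80 members had at least 1 window of 100 bases, the read length, that also occurs in a transcript of a gene elsewhere in the genome, mostly a pseudogene. The median share of such windows was 38.03%. It was 98.4% in Rps27, with 2 other genes, 91.6% in Rpl10 and 88.9% in Rps12, which has 20 other genes sharing windows. It was 36.8% in Rpl26, 32.5% in Rpl30 and 31.0% in Rpl34. Across the measured members, Rpl34 and Rps27 included, the share and the log2 mean RPKM had a Pearson's r of -0.20 and a Spearman's rho of -0.21. For the share and the log2 ratio of knockdown over control these were 0.08 and 0.09. RefSeq lists 303 pseudogenes named after members. The levels of members with many shared windows are uncertain, since a read that maps equally well to several places is not counted by default. The median log2 ratio was -0.37 in the 23 members with under 25% of windows shared, -0.36 in the 28 with 25 to 60% and -0.34 in the 24 with over 60%.

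**Figure D3:**
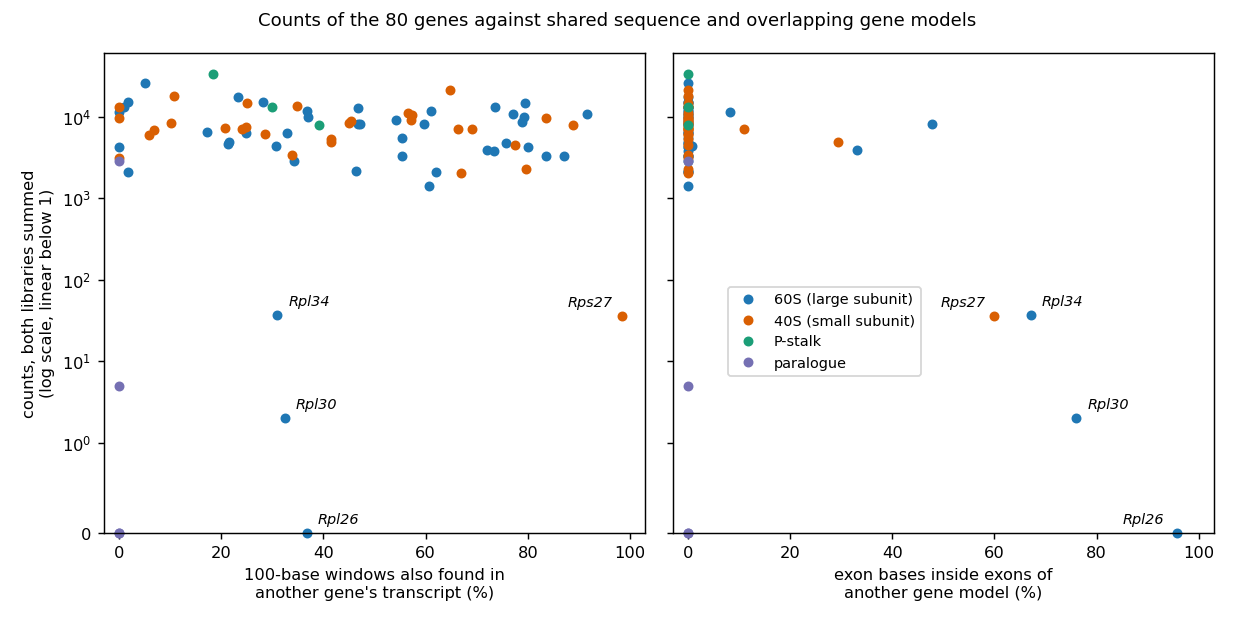
Counts of both libraries summed (log scale, linear below 1) for the 80 ribosomal protein genes, against the share of their 100-base windows found in transcripts of other genes (left) and against the share of their exon bases inside exons of another gene model (right). The 4 core genes near 0 are spread along the left axis, and on the right they are the 4 with over 50% overlap.

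Paralogues of ribosomal proteins are copies with tissue-restricted or conditional expression. Rpl10l, a retrogene of the testis, and Rpl39l had 0 counts in both libraries. Rpl3l, the form of striated muscle, had 1 count in control and 4 in knockdown, with an interval of the log2 ratio of -2.03 to 6.93. Rps27l, the relative of Rps27 known as a p53 target, was the measured paralogue. It had 1250 counts in control and 1649 in knockdown, or 111 and 91.1 CPM, at a log2 ratio of -0.29 (-0.40 to -0.18). The groups are 1 library each, so no spread can be given. None of its 100-base windows occurred in another gene. The coding sequences of the pair, read as the longest open frame of the GENCODE M21 transcripts (GRCm38), are shown because they tell how reads of the 2 genes can be kept apart. Capitals mark the bases at which they differ.
Rps27: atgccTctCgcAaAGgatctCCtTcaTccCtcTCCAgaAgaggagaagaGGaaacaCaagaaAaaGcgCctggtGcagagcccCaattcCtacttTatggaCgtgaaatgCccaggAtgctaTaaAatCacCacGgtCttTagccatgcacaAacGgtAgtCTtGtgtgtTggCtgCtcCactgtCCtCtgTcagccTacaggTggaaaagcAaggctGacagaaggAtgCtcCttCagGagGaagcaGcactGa
Rps27l: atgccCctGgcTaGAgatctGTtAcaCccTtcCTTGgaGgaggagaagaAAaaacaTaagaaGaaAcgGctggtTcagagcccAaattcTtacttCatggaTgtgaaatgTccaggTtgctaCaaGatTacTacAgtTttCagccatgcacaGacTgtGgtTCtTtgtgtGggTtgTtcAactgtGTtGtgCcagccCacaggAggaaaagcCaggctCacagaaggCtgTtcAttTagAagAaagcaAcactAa
Over 255 bases they differ at 61 places, an identity of 76.1%, and the longest identical stretch is 11 bases. Reads of 100 bases from either coding sequence thus differ from the other. No comparison of level between the pair is drawn, since most exon bases of Rps27 lie inside a second gene model.

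The log2 ratio of the ribosomal protein genes varied with the length of their exon models. Across the 75 measured members, longer genes lay closer to an equal level, with a Pearson's r of 0.36 and a Spearman's rho of 0.43. Among the 19 members with the shortest exon models, 327 to 522 bp, the median log2 ratio was -0.42. Of these, 14 were at a ratio of 0.8 or lower by the rule, beside 23.0% of all measured genes. Among the 19 of 524 to 703 bp the median was -0.37 and 14 were, and among the 19 of 710 to 943 bp it was -0.33 and 12 were. Among the 18 with the longest, 961 to 5134 bp, it was -0.29 and 7 were. The 12532 other measured genes showed a relation of the same sign, with a Pearson's r of 0.23 and a Spearman's rho of 0.33. The smoothed trend over all measured genes lay at -0.52 for 400 bp, -0.38 for 700 bp, -0.28 for 1000 bp, -0.16 for 1500 bp and 0.03 for 3000 bp. Member genes have a median exon length of 703 bp, and all measured genes 2871 bp.

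**Figure D4:**
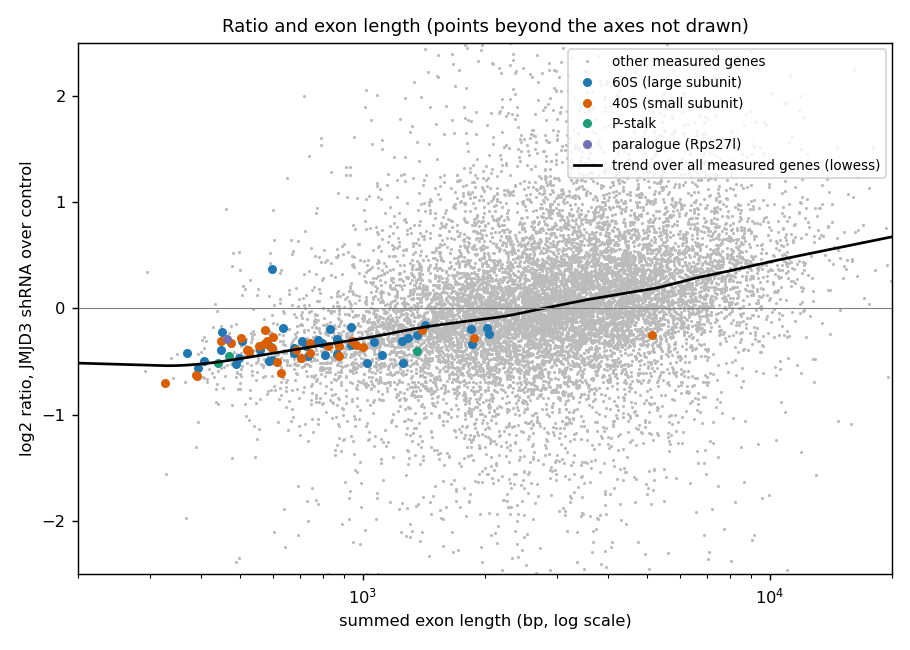
Log2 ratio of knockdown over control against summed exon length (log scale) for all measured genes, with ribosomal protein genes coloured by part of the ribosome and the smoothed trend over all measured genes as a line. The members lie along the trend, near -0.52 at 400 bp and near -0.28 at 1000 bp, with Rps15a (5134 bp) below it and Rpl34 above it.

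Up to 1000 bp, the members' medians were not below those of other genes of like length. From 300 to 500 bp the median log2 ratio was -0.46 for 15 members and -0.54 for 67 other measured genes. From 500 to 750 bp it was -0.37 for 28 members and -0.43 for 258 others. From 750 to 1000 bp it was -0.33 for 16 members and -0.37 for 441 others. Only among longer models were members lower than others, at -0.31 for 10 members and -0.21 for 1248 others from 1000 to 1500 bp, and at -0.24 for 5 and -0.11 for 3070 from 1500 to 2500 bp. The difference between members and others was not tested in any class. These length classes were chosen after the data were seen. With the trend on exon length removed from all genes, the median of the members was -0.0076, 40 of 75 members had a ratio below 1 beside 51.3% of all measured genes, 0 passed as lower beside 11.9%, and 0 as higher beside 13.3%. The members' standard deviation after this step was 0.16. Up to the longest member model of 5134 bp, all measured genes had a median of -0.06.

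With the length trend removed, the lowest member apart from Rps15a was Rpl31 at -0.30, then Rpl13a at -0.23, Rpl21 at -0.22 and Rplp0 at -0.21. Rpl35 at 0.27, Rpl12 at 0.22 and Rps27l at 0.20 were then highest among those with at least 100 counts. These were picked after their values were seen. Rplp1 and Rplp2, at 0.04 and -0.01, lay on the trend. The members' lower median is thus present before, and not after, the length trend is taken out. The labels give neither RNA integrity nor fragment size for the libraries, and their part in the trend was not tested.

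Some promoter features known for the class were more frequent in these genes than in all protein-coding genes. RefSeq promoters (GRCm38.p6, 250 bases before to 50 after the annotated start) were matched for 59 of 80 members. A run of at least 8 C or T was sought that overlapped the 15 bases on either side of the annotated start. It was found in 30 of 59 members (50.8%) and in 19.9% of the 17491 protein-coding genes with a promoter. Where a gene has several annotated starts, the longest run was taken. Such a run need not begin at the first base of the mRNA, so it does not show a TOP tract. It began at base -18 in Rpl4 and at base 14 in Rpl11. The letters CCGGAA on either strand, the core bound by ETS factors, were found in 32 of 59 (54.2%) and in 20.9% of all. ATGGCG on either strand, the core of the YY1 motif, was found in 19 of 59 (32.2%) and 12.4% of all. TATAAA and CACGTG, on either strand, were in 6 of 59 each (10.2%), beside 14.8% and 8.91% of all. Matches can share bases: CCGGAA and ATGGCG can share an A, and CCGGAA on the opposite strand holds C and T letters that can be part of a counted run. A match is a description of letters and not of a bound site.

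Stretches from 40 bases before to 20 bases after the annotated start are shown for members the results turn on, with the longest run of C and T near the start in capitals. Rpl7a has the longest run, at 21 bases. Rplp2 stands for the stalk, Rpl4 for the members closest to an equal level and Rps28 for the lowest. Rpl26 is the gene with 0 counts. They lie at chr2:26910767-26910826 (plus strand), chr7:141447611-141447670 (plus), chr9:64173347-64173406 (plus), chr17:33824543-33824602 (minus) and chr11:68901526-68901585 (plus) in GRCm38.p6.
Rpl7a: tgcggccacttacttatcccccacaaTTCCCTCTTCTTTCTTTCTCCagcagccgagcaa
Rplp2: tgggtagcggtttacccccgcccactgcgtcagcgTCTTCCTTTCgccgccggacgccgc
Rpl4: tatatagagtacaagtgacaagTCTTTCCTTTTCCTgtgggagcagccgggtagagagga
Rps28: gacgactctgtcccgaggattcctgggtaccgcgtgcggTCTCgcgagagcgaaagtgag
Rpl26: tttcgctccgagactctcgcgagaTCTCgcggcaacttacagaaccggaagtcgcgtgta
The runs in Rplp2 and Rpl4 have 10 and 14 bases, and those of Rps28 and Rpl26 have 4 each. Among measured members, the 30 with a run of at least 8 had a median log2 ratio of -0.37, and the 25 with a shorter one -0.36. The members with CCGGAA had a median of -0.35 (30 genes) and those without it -0.39 (25 genes). Each of these medians lay between the quartiles of the other class. The measured members on the X chromosome, Rpl10, Rpl36a, Rpl39 and Rps4x, ran from -0.56 to -0.32, within the range of the autosomal ones.

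Some ribosomal proteins and paralogues have names outside the rule. All 7 were measured and 0 passed as lower or higher, beside 12.8% and 15.3% of all measured genes, with a median log2 ratio of -0.29. Gnb2l1, the 40S scaffold RACK1, was at -0.16 (-0.20 to -0.12). The paralogue Rpl22l1 was lowest at -0.51 (-0.71 to -0.30), and Rpl7l1, with the longest exon model of these, was highest at 0.07 with an interval that included 0.

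Ribosome assembly factors cut, modify and fold rRNA and load it with these proteins. Of 69 measured genes for ribosome assembly, 20 passed as higher (29.0%) and 0 as lower, beside 15.3% and 12.8% of all measured genes, and the median log2 ratio was 0.42. Mdn1, the AAA ATPase that strips assembly factors from pre-60S particles, was the highest at 78.9 CPM in knockdown and 27.5 in control (log2 1.52, 1.34 to 1.70). Dkc1, the pseudouridine synthase of box H/ACA particles, was at 71.8 and 29.2 CPM (log2 1.30). The 40S factor Tsr1 was at log2 1.33, and Utp20, Heatr1 and Wdr43, of the small subunit processome, at 1.29, 1.21 and 1.205. The most abundant per length was Npm1, nucleophosmin, at 0.41, which did not pass. Pa2g4 passed at 0.62, but not with library totals (0.58) or upper-quartile factors (0.57). The interval lay wholly below 1 in 5 genes of the list, and Rrs1 was lowest at -0.38. With the length trend removed, the median of this list was 0.41, close to that before. Mdn1, Utp20 and Heatr1, with exon models of 17959, 8831 and 6776 bp, were then at 0.88, 0.90 and 0.91. Dkc1, Tsr1 and Wdr43 were at 1.30, 1.26 and 1.13, so Mdn1 was no longer the highest.

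RNA polymerase I, which makes the large rRNA precursor, had 4 of 19 measured genes higher (21.1%, beside 15.3% of all measured genes) and 0 lower (beside 12.8%). The median was 0.16, and 0.26 with the length trend removed. Taf1d was at 0.78, Polr1b at 0.78, the large subunit Polr1a at 0.61 and Cd3eap at 0.59. With library totals or upper-quartile factors Polr1a (0.58 and 0.56) and Cd3eap (0.55 and 0.54) did not pass, and Polr1a did not with the length trend removed (0.36). Polr2f and Polr2e, subunits shared with other polymerases and the most abundant of the list per length, were at -0.51 and -0.07. In the list for mTORC1 control of translation, 5 of 20 passed as higher (25%, beside 15.3% of all measured genes) and 0 as lower. The median was 0.26, and 0.056 with the length trend removed. The 5 were the transcription factors Myc, at 255.6 CPM in knockdown and 90.6 in control (log2 1.497, 1.398 to 1.596), and Mycn at 2.18 (7 control and 51 knockdown counts), together with Sesn2 at 1.34, Ddit4 at 0.95 and Eif4ebp1 at 0.61. Eif4ebp1 did not pass with library totals (0.57) or upper-quartile factors (0.56). Sesn2 and Ddit4 are known to restrain mTORC1 and Eif4ebp1 to restrain initiation, so the higher members are not all activators. Rps6kb2 was lowest at -0.28.

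The medians of the translation factor lists were near 0. Of 35 measured initiation factors 1 passed as higher (2.86%, beside 15.3% of all measured genes) and 0 as lower, with a median of 0.05. This was the scaffold Eif4g1 at 0.60 (0.56 to 0.64), which did not pass with library totals (0.56), upper-quartile factors (0.55) or the length trend removed (0.40). Eif4a1, the helicase, and Eif5a were at -0.02 and -0.03, and Eif3k was lowest at -0.42. Of 20 elongation factors and other mRNAs known for a TOP tract, 3 passed as higher (15%, near the 15.3% of all measured genes) and 0 as lower, with a median of -0.01. They were Vim at 1.28, Hnrnpa1 at 0.83 and Ipo5 at 0.69, and Ipo5 did not pass with the length trend removed (0.53). Eef1a1, the most abundant at 5486 CPM in control and 5115 in knockdown, was at -0.10 (-0.12 to -0.09), and Tpt1 at -0.38 (-0.40 to -0.35). These lists share 6 initiation factors and Npm1.

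**Figure D5:**
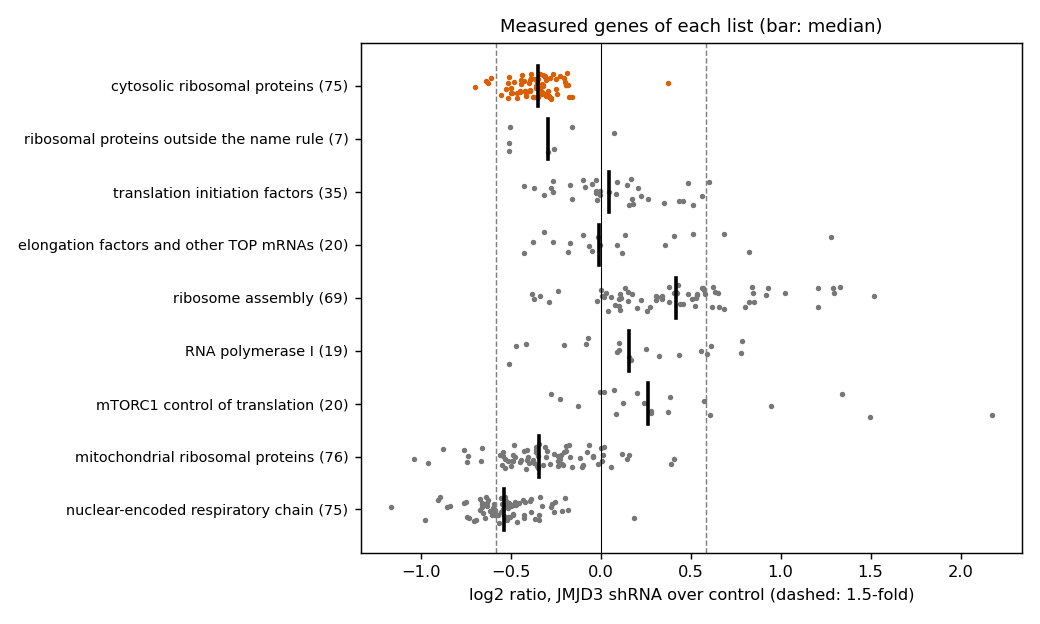
Log2 ratio of knockdown over control for the measured genes of each list, with the number of genes in brackets, the median as a bar and 1.5-fold as dashed lines. Ribosomal protein genes form a narrow group at a median of -0.35, while genes for ribosome assembly spread to higher values around a median of 0.42.

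Of 2 other groups of housekeeping genes, mitochondrial ribosomal proteins had a like median and a wider spread. All 76 were measured, and 8 passed as lower (10.5%, beside 12.8% of all measured genes) and 0 as higher. The median was -0.34 and the standard deviation 0.27, against 0.14 for the cytosolic ribosome. Mitochondrial ribosomal protein models are longer, with a median exon length of 1053 bp beside 703 bp for the cytosolic members. These genes also had fewer counts than most cytosolic members, which widens a spread by counting error. The part of this in the 0.27 was not tested. Mrpl18 was the lowest at -1.04 (-1.19 to -0.89) and Mrpl19 the highest at 0.41. Nuclear-encoded subunits of the respiratory chain had the lowest median of these 3 groups, -0.54. Of their 75 measured genes, 29 passed the rule of size as lower (38.7%, beside 12.8% of all measured genes) and 0 as higher (beside 15.3%). Their exon models have a median length of 681 bp, near the 703 bp of the cytosolic members. From 500 to 750 bp, 26 respiratory chain genes had a median of -0.54 and 28 cytosolic members -0.37. In this class 34.6% of the respiratory chain genes passed as lower, beside 26.0% of 258 genes that are not cytosolic members. The shares were 53.8% of 13 beside 41.8% of 67 from 300 to 500 bp, and 70% of 10 beside 23.6% of 441 from 750 to 1000 bp. With the length trend removed the medians were -0.16 for the respiratory chain, -0.08 for the mitochondrial ribosome and -0.0076 for the cytosolic ribosome. No test of these differences can be made with 1 library a group.

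The authors' deposited table held 75 of the 80 members among its 12838 genes. Of these, 74 in the authors' deposited table had a negative log2 fold change, with a median of -0.35. At an adjusted p-value under 0.05 the authors' deposited table called 7 lower and 0 higher, beside 11.8% and 14.6% of all its genes. In the authors' deposited table these were Rps28 (adjusted p = 0.00671), Rps29 (0.0135), Rps21 (0.0135), Rps19 (0.0166), Rpl39 (0.0383), Rplp2 (0.0486) and Rpl36a (0.0495). The labels do not name the test behind the authors' deposited table or the spread it assumed.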

How the data were processed

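Per the file headers, the deposited values are whole-number read counts per gene from featureCounts 1.4.6-p4 on STAR alignments, over UCSC mm9 gene models, without strand and with no recorded option for read pairs, multi-mapping reads or reads over several genes. Per the file headers, exon length is in bp. The submitters' processing notes name STAR 2.5.3a, Trimmomatic 0.36, and edgeR without a version. The authors' deposited table holds a log2 fold change, an average log2 CPM, and a p-value and adjusted p-value per gene.

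TMM factors on library totals (edgeR 4.0.16, R 4.3.3) gave the scaling. RPKM is this CPM per kilobase of deposited exon length. Ratios carry exact conditional binomial 95% intervals (scipy 1.17.1). A measured gene had a mean of at least 1 CPM. With 1 library a group no edgeR or DESeq2 test was made. The calls were run on simulated counts with counting error only. Such counts cannot show how the calls fare against differences between replicates. The length trend is a lowess fit (statsmodels 0.14.6, fraction 0.3). Windows were compared on both strands, leaving out genes at the same locus.

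The members and lists were chosen with earlier results of these data known. Named genes are the 4 most abundant, 4 highest and 4 lowest of the 60S and 40S groups, all stalk genes, paralogues, unmeasured members and called members. In other lists the 2 most abundant, the highest, the lowest and up to 6 called genes were named. A few genes that this rule names are not reported here. Other named genes were chosen after their values were seen. Libraries of 11099562 and 18334366 counts limit precision as the intervals show. Per the labels, sequencing was paired-end with 100 bp reads.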

Additional observations from a re-analysis of the deposited data

How the results depend on the processing

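No paired analysis was possible because each group is 1 library, and for the same reason no replicate could be left out. Library totals, median-of-ratios size factors and upper-quartile factors put the members' median log2 ratio between -0.40 and -0.34, with 4 or 5 members lower and 0 higher. Filters on low counts, the mean over members, and leaving out paralogues, overlapping genes or, chosen after the data were seen, Rps15a, genes under 100 counts or genes with over 50% of windows shared kept it between -0.37 and -0.35. Members past the rule as lower numbered 47 at a ratio limit of 0.8, 0 at 2-fold and 7 in the authors' deposited table. With the exon-length trend removed there were 0 and the median was -0.0076; the cause of the trend was not tested. That step also moved the medians of ribosomal proteins outside the name rule to -0.025, of mitochondrial ribosomal proteins to -0.084, of the respiratory chain to -0.16 and of mTORC1 control to 0.056. Medians near 0 changed sign, for initiation factors to -0.0018 with upper-quartile factors, and for elongation factors and other TOP mRNAs to 0.0019 with median-of-ratios size factors and 0.092 with the length trend removed. With the length trend removed, 40 of 75 members had a ratio below 1, beside 74 before, so many single genes changed sign. These included Eef1a1 (0.020), Gnb2l1 (0.050), Rpl12 (0.22), Rpl32 (0.17), Rpl4 (0.016), Rpl7 (0.12), Rplp1 (0.038), Rps18 (0.045) and Rps27l (0.20).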
